A study of Mus musculus with 6 samples.

Results

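A set of 10 genes of the insulin-like growth factor (IGF) system was followed through 6 RNA sequencing libraries of sorted newborn mouse hair follicle cells: the ligand gene Igf1, the receptor genes Igf1r and Insr, the receptor substrate gene Irs1 and the binding protein genes Igfbp2, Igfbp3, Igfbp4, Igfbp5, Igfbp6 and Igfbp7. They were chosen by gene symbol, with earlier results of these data known. All 10 were found among the 24453 symbols counted. Of the libraries, 3 came from animals labelled only as control and 3 from Ring1a-/- Ring1b-/I53A mutants, all taken from back skin at postnatal day 0. The mutants joined loss of Ring1a (encoded by Ring1), a null allele of Ring1b (encoded by Rnf2) and the I53A allele of Ring1b, and no group separated these. Ring1a and Ring1b are the ubiquitin ligases of Polycomb repressive complex 1 (PRC1), which modifies histone H2A at silenced genes, and I53A is known to impair the ligase activity while leaving the protein in place. The labels do not say how the Ring1b alleles were directed to skin, what alleles the controls carried, or whether the libraries of a group came from separate animals. The p-values therefore measure the spread between these libraries, part of which may be technical.

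IGF1 and IGF2 are secreted growth factors that activate the tyrosine kinase IGF1R, and insulin acts mainly through the related receptor INSR. Both receptors phosphorylate docking proteins such as IRS1, which pass the signal to PI3 kinase and AKT. IGF binding proteins (IGFBPs) hold IGFs in the extracellular space, limit or prolong their access to the receptor, and are themselves cut by proteases. In skin, IGF1 made by the dermis and dermal papilla is known to act on the epithelium of the hair follicle, and basal keratinocytes are known to make IGFBP3.

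The libraries held 14335156 to 18811587 counts, and a level of 1 CPM (counts scaled to a common library size) stood for 14.7 to 18.2 reads. Ring1 fell from 20.01 ± 2.80 to 5.07 ± 1.94 CPM (SD, n = 3 each, as for all means below; log2 fold change -1.98, SE 0.33, adjusted p = 0.0113 by edgeR's quasi-likelihood test, used for every adjusted p below), and Rnf2 gave 59.8 ± 6.93 CPM for controls against 67.1 ± 3.68 for mutants (adjusted p = 0.736), where reads of Rnf2 and of the overlapping Trmt1l on the other strand may be shared. Keratin and follicle markers were present in every library. The summed level of 11 genes such as Krt5, Lhx2 and Sox9 was 11078 to 13531 CPM in controls and 12114 to 17069 CPM in mutants. Krt5 (7911 ± 804 and 9845 ± 1706 CPM) and Krt14 (1273 ± 256 and 1568 ± 378.5) gave most of this sum. Lhx2 was at 334 ± 69.5 and 248 ± 30.45 CPM, and Sox9 at 536 ± 194 and 575 ± 303 CPM. The interfollicular marker Krt1 was at 3358 ± 764 and 2126 ± 510 CPM, and the sum by itself does not tell follicle from interfollicular cells. Of the 11 genes, the stem cell marker Lgr5 was called (adjusted p = 0.0125, lower in mutants). With the replicate number as a block 5 of the 11 were called, Krt5 and Krt17 upward and Lgr5, Shh and Edar downward. Under that block 9.38% of all tested genes were called, 6.09% upward and 3.29% downward. The sort described in the labels is one for Sca1-positive interfollicular cells, and the gate for follicle cells is not stated. Ly6a, which encodes Sca1, was at 0.502 to 1.49 CPM over the 6 libraries. Of the 14345 genes tested, 430 were called at an adjusted p under 0.05, which is 3.0%, with 2.59% up and 0.404% down.

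Transcripts of 3 binding proteins, Igfbp2, Igfbp3 and Igfbp4, were higher in mutant follicle cells, by 3.40-, 4.16- and 2.23-fold. The other 7 genes, among them both receptors, Irs1 and Igf1, did not pass the test. All 10 genes passed the filter on low counts. Thus 3 of 10 rose and none fell, where 3.0% of all tested genes were called. Under this block the same 3 rose and none fell, where 6.09% of all tested genes rose and 3.29% fell. Over the 10 genes the median log2 fold change was 0.28, against -0.003 over all tested genes, and 7 of 10 had a value above 0. Because the 10 genes were chosen with earlier results of these data known, these counts and medians are a description only. In bulk libraries, more RNA per cell and more cells of a type cannot be told apart.

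**Figure D1:**
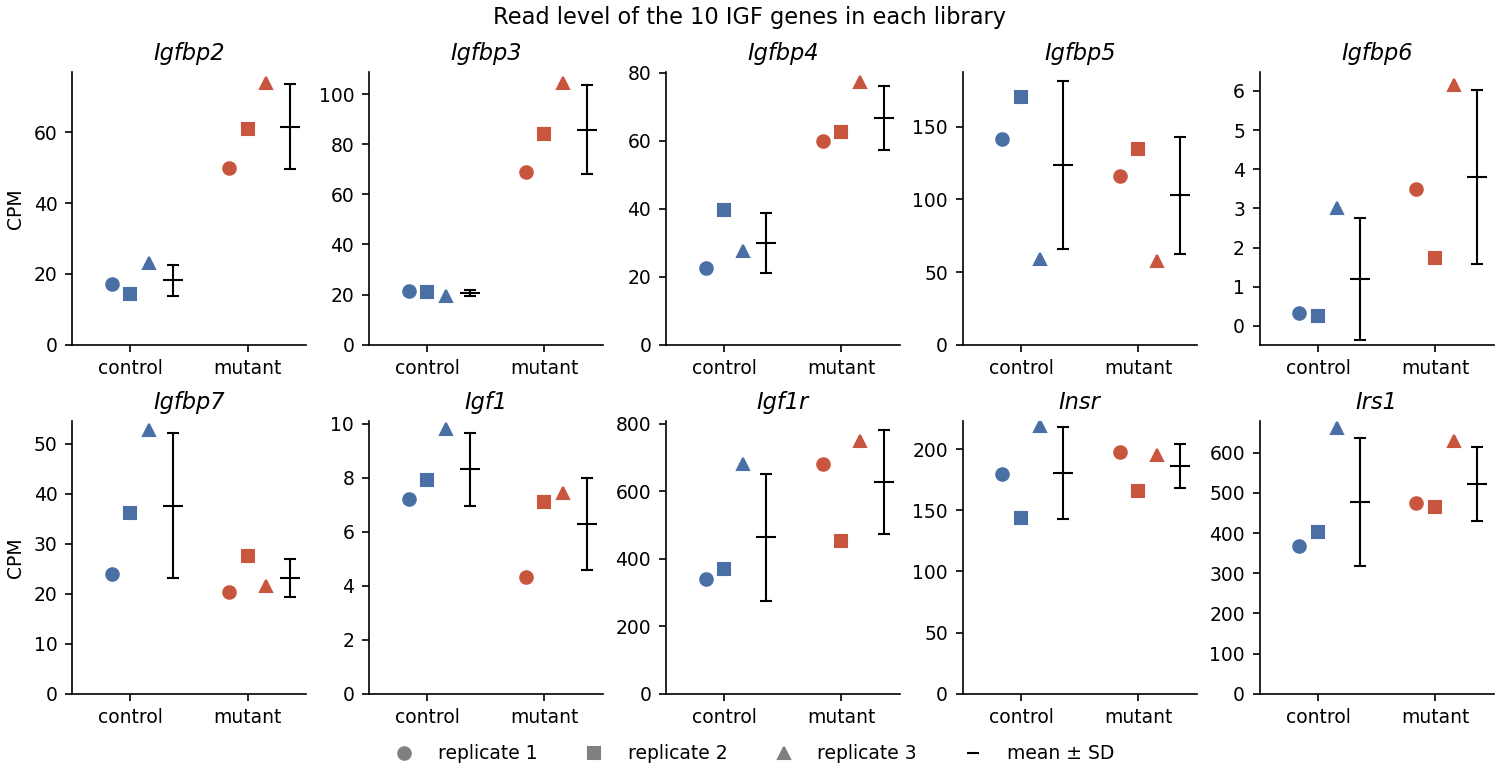
Each panel plots the level of 1 gene in CPM (vertical axis from 0, and for Igfbp6 from just below 0 to hold the error bar) in 3 control (blue) and 3 mutant (red) libraries, with the marker shape giving the replicate number and the black bar the mean ± SD. Igfbp2, Igfbp3 and Igfbp4 have no overlap between the groups, while the groups of the other 7 genes overlap.

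Igfbp3 encodes the main IGF carrier of serum. Reads of Igfbp3 were 316, 334 and 342 in controls and 1257, 1411 and 1563 in mutants, or 21.5, 20.96 and 19.4 CPM against 68.9, 84.1 and 104 CPM. Every mutant library was above every control library, and the controls lay close together. On average Igfbp3 rose from 20.6 ± 1.097 to 85.8 ± 17.9 CPM, a log2 fold change of 2.06 (SE 0.20, 95% interval 1.601 to 2.51, adjusted p = 0.000812). The gene lies on chromosome 11 from 7206086 to 7213923 (minus strand, GRCm38, GENCODE M21). Its call held in all 6 fits that left out 1 library, with an adjusted p of at most 0.00736.

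Igfbp2 encodes a binding protein that also carries an integrin-binding motif (chromosome 1, 72824503 to 72852474, plus strand). It was at 17.2, 14.2 and 23.0 CPM in controls and 49.9, 61.1 and 73.9 CPM in mutants. The lowest mutant library was above the highest control library. The mean rose from 18.1 ± 4.51 to 61.6 ± 12.0 CPM (1.76, SE 0.24, 95% interval 1.22 to 2.31, adjusted p = 0.00503), and the call held in all 6 fits without 1 library (adjusted p up to 0.0358).

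Igfbp4 encodes a binding protein known to inhibit IGF action until the protease PAPP-A cuts it (chromosome 11, 99041244 to 99054392, plus strand). Its levels were 22.6, 39.7 and 27.5 CPM in controls and 59.97, 62.7 and 77.3 CPM in mutants. The groups again did not overlap, although control 2 stood above the other controls. The mean rose from 29.9 ± 8.81 to 66.7 ± 9.35 CPM (1.16, SE 0.24, 95% interval 0.63 to 1.69, adjusted p = 0.0307). This call was lost without control 1 (adjusted p = 0.123), mutant 1 (0.0757), mutant 2 (0.0974) or mutant 3 (0.0837), with log2 fold changes from 0.99 to 1.41 over the 6 such fits. For 21.2% of all tested genes the groups did not overlap.

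The 250 bases before the annotated start of the 3 risen genes are shown because these genes moved together, with Igfbp5, the uncalled neighbour of Igfbp2, beside them. They are from RefSeq (GRCm38.p6), written 5′ to 3′ on the strand of the gene, and capitals mark each CG dinucleotide, which is dense in the CpG islands that Polycomb complexes are known to bind. The windows are chr1:72824230-72824479 (plus strand) for Igfbp2, chr11:7213924-7214173 (minus) for Igfbp3, chr11:99040994-99041243 (plus) for Igfbp4 and chr1:72874866-72875115 (minus) for Igfbp5.
Igfbp2: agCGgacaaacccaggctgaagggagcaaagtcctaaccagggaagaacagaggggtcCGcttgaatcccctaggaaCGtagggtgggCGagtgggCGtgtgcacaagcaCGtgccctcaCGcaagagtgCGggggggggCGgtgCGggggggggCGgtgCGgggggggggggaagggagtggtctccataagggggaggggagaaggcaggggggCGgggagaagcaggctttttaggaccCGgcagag
Igfbp3: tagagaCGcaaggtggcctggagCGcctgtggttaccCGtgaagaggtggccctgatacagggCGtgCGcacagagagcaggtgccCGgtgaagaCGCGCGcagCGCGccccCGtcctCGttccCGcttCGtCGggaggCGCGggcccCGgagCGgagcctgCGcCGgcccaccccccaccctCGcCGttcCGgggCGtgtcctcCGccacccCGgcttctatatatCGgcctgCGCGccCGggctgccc
Igfbp4: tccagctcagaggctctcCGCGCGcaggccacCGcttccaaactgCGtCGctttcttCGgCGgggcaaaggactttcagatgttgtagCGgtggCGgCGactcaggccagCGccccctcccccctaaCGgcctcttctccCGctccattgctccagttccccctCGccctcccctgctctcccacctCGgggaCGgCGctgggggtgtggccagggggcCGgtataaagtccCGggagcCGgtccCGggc
Igfbp5: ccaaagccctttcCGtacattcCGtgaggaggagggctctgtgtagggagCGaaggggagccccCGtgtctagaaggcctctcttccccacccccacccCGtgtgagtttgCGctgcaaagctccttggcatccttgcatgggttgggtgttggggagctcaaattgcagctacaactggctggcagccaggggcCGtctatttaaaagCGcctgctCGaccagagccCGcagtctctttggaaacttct

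The Igfbp3 window held 32 CG dinucleotides, a number reached by 4.58% of 32851 mouse promoter windows of the same length. Igfbp4 held 22 (reached by 14.8%), Igfbp2 held 14 (29.4%) and Igfbp5 held 10 (37.8%), where the median of all windows was 6. High counts were not limited to risen genes, since the window of Igf1r, which was not called, held 42 (0.865%), that of Irs1 28 (7.61%) and that of Igfbp7 26 (9.59%). The windows of Igf1 and Igfbp6 held 5 and 7. These windows lie before RefSeq starts, which were 2846 bases from the GENCODE start for Igf1, 570 for Igf1r and 176 for Igfbp6. For the other windows compared here that distance was at most 23 bases, so the counts are not all from like positions. Of the printed windows, that of Igfbp4 alone held TATAAA (searched on both strands, found in 12.4% of all windows), and that of Igfbp2 alone held GGGCGG (both strands, 32.7% of all windows, and itself containing a CG). The second RefSeq start of Igfbp2 was not printed, and Insr had no entry in the table.

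Igfbp5, the gene beside Igfbp2, was not called. Igfbp2 and Igfbp5 are adjacent and convergent on chromosome 1, with 5458 bases between their annotated ends. Igfbp5, a binding protein that attaches to extracellular matrix (chromosome 1, 72857932 to 72874884, minus strand), was at 141, 170 and 58.8 CPM in controls and 116, 134 and 57.7 CPM in mutants. The libraries numbered 3 were the lowest of both groups, and the groups overlapped almost fully. Its log2 fold change was -0.27 (SE 0.39, 95% interval -1.14 to 0.61, adjusted p = 0.835). Rpl37a, the next tested coding gene on the other side of Igfbp2, was at 3.07 ± 0.671 and 3.03 ± 0.901 CPM.

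The coding gene next to Igfbp3 is Igfbp1, at a distance of 3540 bases, which encodes a binding protein known mainly from liver. It had no read in any control and 4, 0 and 1 reads in mutants 1, 2 and 3, too few to be tested. The next tested coding gene on the other side, Tns3, lies 1217729 bases away and rose from 79.9 ± 9.63 to 142 ± 6.59 CPM (0.83, SE 0.16, adjusted p = 0.0215). Igfbp4 is flanked by Top2a, a topoisomerase gene of dividing cells, at 17055 bases and by Tns4, a focal adhesion gene, at 11286 bases. Top2a was at 557 ± 60.5 and 362 ± 19.9 CPM (log2 fold change -0.62, adjusted p = 0.0515, and 0.00789 under the replicate block). Tns4 was at 346 ± 260 and 349.8 ± 299 CPM (0.01, adjusted p = 0.995). Neither tested flanking gene of Igfbp4 was called upward.

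Igfbp7 and Igfbp6 complete the binding proteins. Igfbp7, a distant relative with weak IGF binding (chromosome 5, 77349240 to 77408041, minus strand), was at 23.98, 36.1 and 52.8 CPM in controls and 20.3, 27.4 and 21.6 CPM in mutants. Mutants 1 and 3 were below every control, and mutant 2 was within the control range. Its log2 fold change was -0.70 (SE 0.29, 95% interval -1.34 to -0.06) with an unadjusted p of 0.0344 in edgeR's quasi-likelihood test and an adjusted p of 0.283. It overlaps Polr2b, a polymerase subunit gene on the other strand at 122 and 124 CPM, and without a stated strand setting reads of this pair may be shared. Igfbp6, which prefers IGF2 (chromosome 15, 102144362 to 102149511, plus strand), had 5, 4 and 53 reads in controls and 64, 29 and 92 in mutants.

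Control 3 thus held most of the control reads of Igfbp6. Its levels were 0.341, 0.251 and 3.01 CPM against 3.51, 1.73 and 6.15 CPM, and the groups overlapped through control 3. The log2 fold change was 1.64 (SE 0.91, 95% interval -0.41 to 3.68, adjusted p = 0.468). Without control 3 it was 3.66, with an adjusted p of 0.0380, the 1 setting in which a further gene of the 10 was called.

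**Figure D2:**
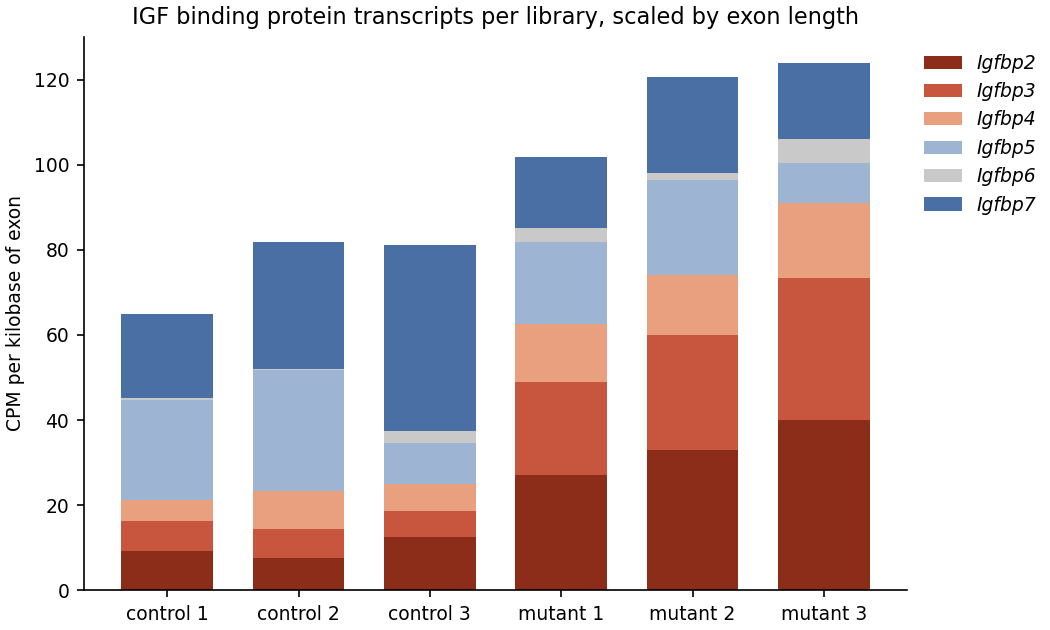
Stacked bars give the transcript level of 6 IGF binding protein genes in each of the 6 libraries, as CPM per kilobase of exon, so that genes of different length can be compared. The sum is 65.0 to 81.8 in controls and 102 to 124 in mutants, and the red parts (Igfbp2, Igfbp3 and Igfbp4) take 28.6% to 32.8% of the sum in controls and 61.4% to 73.4% in mutants.

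Scaled by exon length, the make-up of the binding protein transcripts differed between the groups. The 6 genes together had 65.0, 81.8 and 81.1 CPM per kilobase in controls and 102, 121 and 124 in mutants. Igfbp7 had the largest share in controls 2 and 3, with 36.5% and 53.9% of that sum, and Igfbp5 in control 1, with 36.2% against 30.5% for Igfbp7. In mutants Igfbp2 had the largest share, 26.5%, 27.4% and 32.3%, followed by Igfbp3 with 21.6%, 22.3% and 26.9%. Igfbp7 then had 16.5%, 18.8% and 14.4%. Igfbp2, Igfbp3 and Igfbp4 together went from 30.7% ± 2.10 to 65.4% ± 6.90. These 3 were grouped after their values were seen, so the share is a description.

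The receptors showed no called change. Igf1r (chromosome 7, 67952827 to 68233668, plus strand) was at 340, 370 and 679.6 CPM in controls and 680.2, 453 and 749 CPM in mutants. Control 3 was as high as mutant 1, and mutant 2 lay between control 2 and control 3, so the groups overlapped through control 3. The log2 fold change was 0.44 (SE 0.28, 95% interval -0.19 to 1.06, adjusted p = 0.538, and 0.0866 under the replicate block). Over the 6 fits without 1 library it ran from 0.26 without control 1 to 0.83 without control 3 (adjusted p = 0.0612), and none called the gene. Insr (chromosome 8, 3122061 to 3279617, minus strand) was at 179.7, 144 and 219 CPM against 198, 166 and 195 CPM, with all mutants inside the control range (0.04, SE 0.18, 95% interval -0.36 to 0.44, adjusted p = 0.949).

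The ratio of Igf1r to Insr reads within a library, which does not depend on scaling, was 1.90, 2.57 and 3.10 in controls and 3.44, 2.74 and 3.84 in mutants. Its log2 mean was 1.31 ± 0.36 and 1.73 ± 0.25, a difference of 0.42 that did not pass (two-sided exact permutation test, p = 0.2, where 3 against 3 libraries allow no p under 0.1). Irs1, the docking protein of both receptors (chromosome 1, 82233101 to 82291416, minus strand), was at 369, 403 and 661 CPM in controls and 474, 466 and 629 CPM in mutants. As for Igf1r, control 3 was the highest control. Its log2 fold change was 0.13 (SE 0.23, 95% interval -0.39 to 0.65, adjusted p = 0.867).

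By group mean, Igf1 was the lowest of the 10 genes per kilobase of exon in both groups, although Igfbp6 was lower in controls 1 and 2 (0.306 and 0.226 CPM per kilobase, against at least 0.729 for Igf1). Its levels (chromosome 10, 87858265 to 87937042, plus strand) were 7.22, 7.91 and 9.82 CPM in controls and 4.33, 7.10 and 7.42 CPM in mutants, with mutants 1 and 2 below every control. The log2 fold change was -0.41 (SE 0.33, 95% interval -1.16 to 0.34, adjusted p = 0.655). Igf1, Insr and Irs1 overlap gene models on the opposite strand that were not analysed here, whereas the 3 risen genes overlap no other gene of the annotation.

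**Figure D3:**
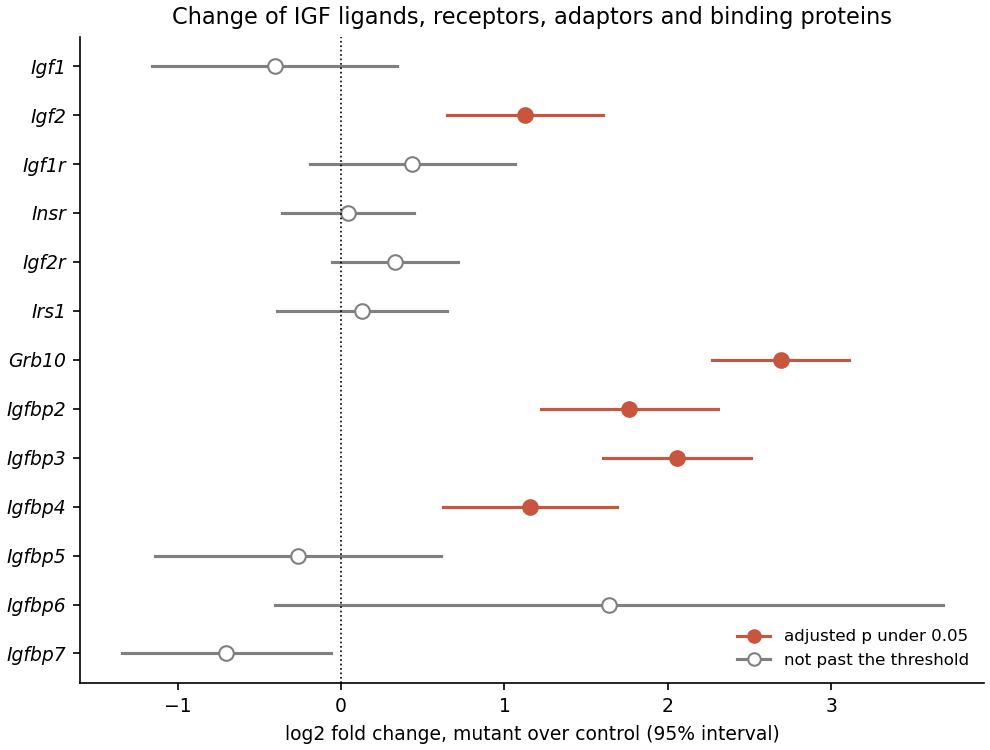
Points give the log2 fold change of mutant over control and lines its 95% interval, for the 10 genes plus Igf2, Igf2r and Grb10, with filled red marks for an adjusted p under 0.05. Igfbp2, Igfbp3, Igfbp4, Igf2 and Grb10 lie to the right of 0 with their whole interval, while the points of Insr (0.04) and Irs1 (0.13) are near 0 and the interval of Igfbp7 ends just below 0.

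In order of level per kilobase, controls ran from Irs1 (52.2 ± 17.5 CPM per kilobase) through Igfbp7 (31.1 ± 12.0), Igf1r (27.6 ± 11.2), Igfbp5 (20.6 ± 9.63), Insr (13.2 ± 2.74), Igfbp2 (9.82 ± 2.44), Igfbp4 (6.77 ± 1.99) and Igfbp3 (6.59 ± 0.350) to Igfbp6 (1.079 ± 1.41) and Igf1 (0.840 ± 0.136). Neighbours in this order overlapped in their library ranges, except that Igfbp3 was above Igfbp6 in every control. In mutants Igfbp2 (33.4 ± 6.52) and Igfbp3 (27.4 ± 5.70) came after Irs1 (57.2 ± 10.03) and Igf1r (37.4 ± 9.24). There the ranges of neighbours were apart between Irs1 and Igf1r, between Insr and Igfbp6, and between Igfbp6 and Igf1.

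**Figure D4:**
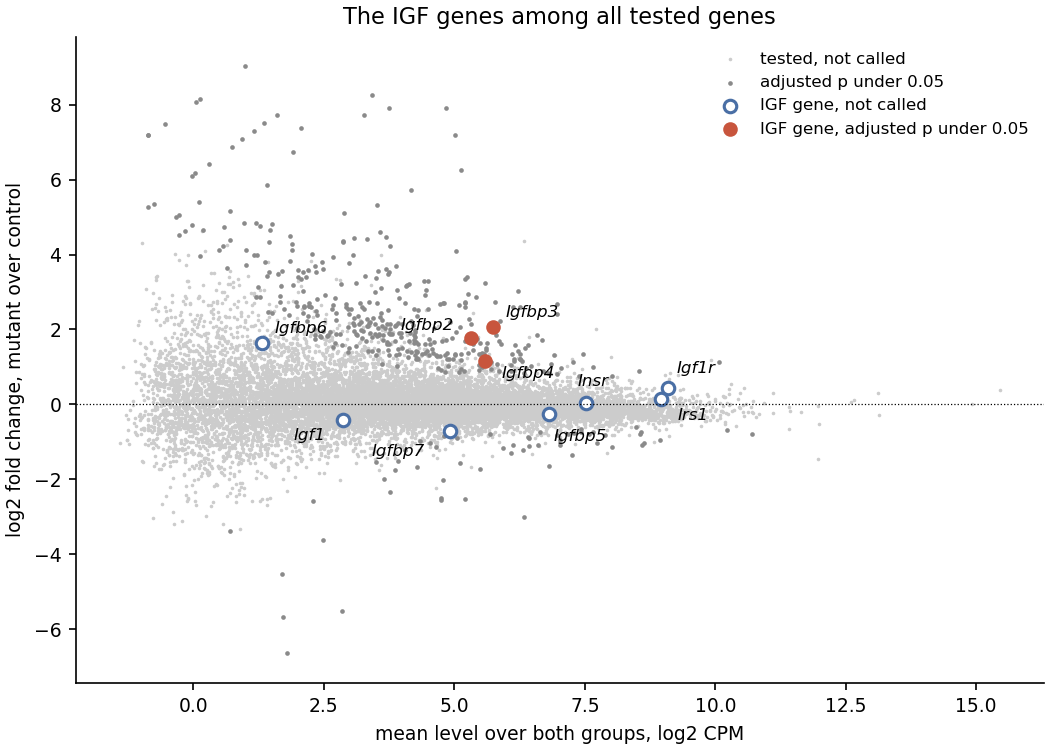
The horizontal axis is the mean level over both groups (log2 CPM) and the vertical axis the log2 fold change of mutant over control for the 14345 tested genes, with called genes in dark grey and the 10 IGF genes ringed in blue (not called) or filled in red (called). Igfbp2, Igfbp3 and Igfbp4 lie above 0, at 1.76, 2.06 and 1.16. Igf1r, Irs1 and Insr sit at high levels, at 0.44, 0.13 and 0.04.

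The wider pathway was described with 6 lists of 99 further genes, of which 93 were tested. In these lists 2 genes rose and 1 fell, 3.23% of those tested and close to the 3.0% of all genes, and their median log2 fold change was -0.09. With the replicate block 5 rose and 8 fell, where 9.38% of all genes were then called, 6.09% upward and 3.29% downward. The counts at an unadjusted p under 0.05 given below are to be read against the 14.9% of all tested genes that reached it.

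Among 7 tested genes for ligands, receptors, IGF-binding proteins and Igf2 mRNA-binding proteins (11 listed), 1 was called. Igf2, the fetal growth factor that is expressed from the paternal allele (chromosome 7, 142650766 to 142666816, minus strand), was at 651, 552 and 827 CPM in controls and 1109, 1748 and 1566 CPM in mutants. All mutants were above all controls, and the mean rose from 676 ± 139 to 1474 ± 329 CPM (1.12, SE 0.21, adjusted p = 0.0217). The call was lost without control 1 (0.0994), control 2 (0.0881), mutant 2 (0.0961) or mutant 3 (0.0546). Its locus holds Igf2os on the other strand, at 5.04 and 22.1 CPM. Igf2r, which clears IGF2 from the cell surface, was at 141 ± 24.0 and 177 ± 20.7 CPM (0.33, SE 0.17, adjusted p = 0.435), and Ins1 and Ins2 had no reads. Under the block Igf2bp1 and Igf2bp2, whose products bind Igf2 mRNA, were called upward as well. Igf2bp3 was lower in every mutant than in every control, at 178.6 ± 1.36 and 142.6 ± 14.9 CPM. It was not called (-0.32, SE 0.14, adjusted p = 0.333, and 0.0949 under the block).

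Of 18 tested adaptors and feedback genes (19 listed), Grb10 alone was called. Grb10 is an adaptor that binds the activated IGF1 and insulin receptors and inhibits their signal (chromosome 11, 11930508 to 12038683, minus strand). It was at 31.8, 30.4 and 38.0 CPM in controls and 186, 258 and 202 CPM in mutants, with the groups far apart. The mean rose from 33.4 ± 4.08 to 215 ± 37.9 CPM, a 6.45-fold change (2.69, SE 0.19, adjusted p = 0.00026), and the call held in all 6 fits without 1 library (adjusted p up to 0.00286). Under the block the docking gene Irs2 and the exchange factor gene Sos1 were called downward. Irs2 was at 126, 181 and 316 CPM in controls and 98.2, 113 and 263 CPM in mutants.

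Of 9 tested IGFBP proteases and their inhibitors (10 listed), edgeR called 0, with or without the block, as did DESeq2 and limma-voom, and 1 had an unadjusted p under 0.05 in edgeR's test. That was the protease gene Htra3, at 0.242 ± 0.326 and 1.55 ± 1.403 CPM (2.67, SE 1.17, adjusted p = 0.326), and its log2 fold change ran from 1.63 without mutant 3 to 4.55 without control 1. Pappa2, whose product cuts IGFBP3 and IGFBP5, was at 2.96 ± 2.24 and 1.27 ± 0.375 CPM (adjusted p = 0.455). Pappa, which encodes the protease of IGFBP4, was at 40.7 ± 9.004 and 33.6 ± 7.64 CPM (-0.28, SE 0.24, adjusted p = 0.685).

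Of 28 PI3 kinase, AKT and MTOR genes, edgeR called 0, DESeq2 and limma-voom 1 each, and 2 had an unadjusted p under 0.05 in edgeR's test. Pik3ca, a catalytic subunit gene of PI3 kinase, was at 131 ± 16.8 and 94.8 ± 5.82 CPM (-0.47, SE 0.16, adjusted p = 0.174, and 0.0320 under the block).

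Among 19 FOXO factors and genes they are known to activate, Bcl6 fell and none rose. Bcl6, a transcriptional repressor (chromosome 16, 23965052 to 23988852, minus strand), was at 288, 387 and 389 CPM in controls and 124, 128 and 236 CPM in mutants, without overlap. Its log2 fold change was -1.13 (SE 0.26, adjusted p = 0.0481). The call was lost without control 1 (0.0803), control 2 (0.148), control 3 (0.0581), mutant 1 (0.164) or mutant 2 (0.195), with the stricter filter (0.0523) and with DESeq2-type size factors (0.0556). With the block Bcl6, Klf6 and Cat were called downward. Foxo1, Foxo3, Foxo4 and Foxo6 were not called.

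Of 12 genes induced by ERK signalling, edgeR and limma-voom called 0, DESeq2 called 1, and 3 had an unadjusted p under 0.05 in edgeR's test. Of them 11 had a log2 fold change under 0 (median -0.42, against -0.003 over all tested genes). Spred1, an inhibitor of RAS signalling, was at 174 ± 13.2 and 114 ± 6.79 CPM (-0.61, SE 0.14, adjusted p = 0.0559, and 0.0114 under the block). Etv5, a transcription factor gene, was at 36.3 ± 6.04 and 24.9 ± 2.12 CPM (adjusted p = 0.227). Egr1 was called downward with the block as well.

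Markers of other cell types were measured beside these results. The summed level of 10 dermal papilla markers was 10.4 to 29.6 CPM in controls and 44.6 to 50.1 CPM in mutants, without overlap. Of the 6 tested markers 5 had a log2 fold change above 0 (median 0.86, against -0.003 over all tested genes). Among them edgeR called 1, Prom1, which rose from 3.93 ± 1.95 to 22.6 ± 2.28 CPM (adjusted p = 0.00782). Without Prom1, taken out after its value was seen, the sums were 10.83, 8.596 and 23.95 CPM in controls and 24.02, 24.39 and 25.01 CPM in mutants. Alpl was at 0.282 ± 0.224 and 1.98 ± 0.339 CPM (adjusted p = 0.115, called by DESeq2). Hhip (8.17 ± 4.29 and 14.3 ± 1.23 CPM), Wif1 (2.365 ± 1.36 and 4.51 ± 1.10) and Sox18 (1.08 ± 1.02 and 1.54 ± 0.716) had higher means in mutants and were not called. Corin, the only tested marker with a lower mean, was at 1.14 ± 0.674 and 0.730 ± 0.817 CPM (adjusted p = 0.824). Fgf7 and Fgf10 were under 1 CPM in every library. Sox2 (0.416 ± 0.721 and 0.484 ± 0.357 CPM) and Rspo3 (0.551 ± 0.163 and 0.668 ± 0.763), untested like Fgf7 and Fgf10, overlapped between the groups. The sum of 10 dermal fibroblast markers was 1474 to 1749 CPM in controls and 1395 to 2167 CPM in mutants. Of its 9 tested genes Fbn1 alone was called, and it rose from 24.1 ± 11.6 to 87.1 ± 10.4 CPM (adjusted p = 0.0137). The 9 genes had a median log2 fold change of 0.08, with 5 above 0. Col1a1 (-0.37), Col3a1 (-0.25), Lum (-0.38) and Dpt (-0.24) were below 0. The part of these cell types in the rise of Igfbp2, Igfbp3 and Igfbp4 was not tested.

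Sums for endothelial (9.40 to 13.6 and 12.1 to 27.5 CPM), mural (216 to 328 and 303 to 466 CPM), melanocyte (15.0 to 23.4 and 12.5 to 32.7 CPM) and leukocyte markers (13.6 to 57.7 and 9.98 to 18.4 CPM) overlapped between the groups. Tested were 2 of 6 endothelial, 6 of 6 mural, 4 of 6 melanocyte and 2 of 6 leukocyte markers. None of these was called by edgeR, DESeq2 or limma-voom, with 0 at an unadjusted p under 0.05 in edgeR's test. Of the untested endothelial markers, Kdr (0.394 ± 0.233 and 1.99 ± 1.74 CPM), Tie1 (0.0855 ± 0.0953 and 1.22 ± 0.942) and Emcn (0.0378 ± 0.0655 and 0.657 ± 0.648) were higher in every mutant than in every control. They rested on few reads. Kdr had 8, 2 and 9 reads in controls and 26, 10 and 59 in mutants. Tie1 had 1, 3 and 0 against 6, 19 and 33, and Emcn 0, 0 and 2 against 6, 4 and 21. The 21.2% of tested genes without overlap does not cover untested genes, for which no share was counted. Cldn5, also untested, overlapped (0.386 ± 0.555 and 0.288 ± 0.119 CPM). The leukocyte marker Cd3g had no reads. The sum of 4 counted interfollicular markers was 3820 to 5283 CPM in controls and 2308 to 3858 CPM in mutants, also with overlap. The 10 proliferation genes summed to 2738 to 3475 CPM in controls and 1736 to 2011 CPM in mutants, without overlap. Among them Mki67 and Mcm6 fell, where 0.404% of all tested genes did. Under the block Top2a, Mcm2 and Mcm5 were called downward as well, as was the interfollicular marker Krt1. That fit called 3.29% of all tested genes downward. Whether proliferation or any of these cell types bears on the IGF genes was not tested.

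**Figure D5:**
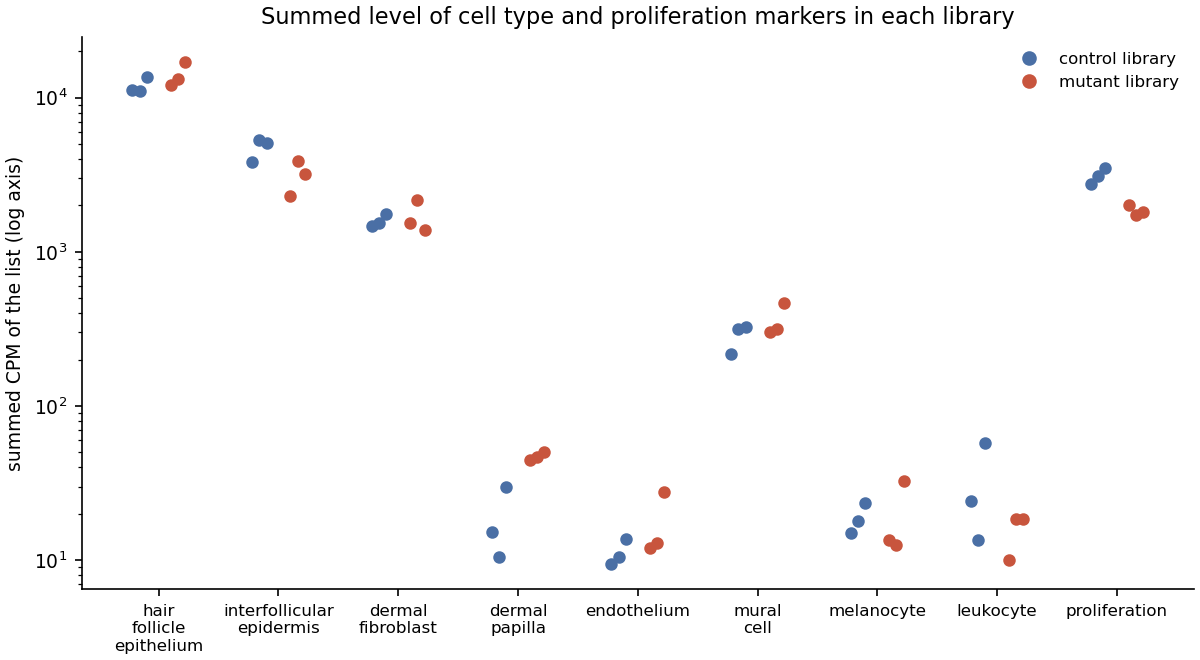
Each point is 1 library, and its height the summed CPM of a marker list (log axis), for controls (blue) and mutants (red). The dermal papilla and proliferation sums separate the groups, at 10.4 to 29.6 against 44.6 to 50.1 CPM and 2738 to 3475 against 1736 to 2011 CPM, and the other sums overlap.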

How the data were processed

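Each deposited file gives 1 library's raw counts, as whole numbers by gene symbol. Per the labels' protocols, skin was digested with collagenase and trypsin, sorted after staining for Sca1, α6-integrin and EpCAM, and RNA was amplified from 10 ng before single-read sequencing. Per the submitters' processing notes, the mm10 build was used with HTSeq 0.6.1, TopHat2 2.0.13, DESeq2 1.6.3 and Cufflinks 2.2.1, with no role or order stated. The strand setting and the annotation counted are not stated there.

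Counts of all genes were tested with edgeR 4.0.16 in R 4.3.3 (quasi-likelihood test, TMM factors, filterByExpr, group as the only term), with Benjamini-Hochberg adjustment over the 14345 tested genes and a threshold of 0.05, two-sided. The filter removed 0.0971% of counts. CPM use TMM effective library sizes, and SE and 95% intervals come from the F statistic. A count of 0 allows up to 3 counts, 0.164 to 0.204 CPM, and this floor covers counting error only. Levels per kilobase use merged GENCODE M21 exons, which may differ from the models counted. The steps were tested on simulated data.

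The labels number the libraries 1 to 3 in both groups without saying what a number marks. After group means were removed, libraries with the same number correlated (r from 0.168 to 0.363, other pairs 0.0891 or lower), so a fit with the number as a block is given where it changed a call. This pairing comes from the data and is uncertain. No library was a copy of another (lowest chi-square over degrees of freedom among 15 pairs, 25.1). The members, lists and tests were chosen with earlier results of these data known. All 10 members are named, and from each other list the called genes or, with none, the 2 of smallest p. The result for 1 gene chosen by this rule is not reported here. The other genes named, such as Igf2r, Irs2, Pappa, flanking genes and those called only under the block, were added after their values were seen. Alternatives were DESeq2 1.42.0, limma-voom (limma 3.58.1), DESeq2-type size factors, library totals only, no filter, a stricter filter (5 CPM in 3 libraries), the block and leaving out each library.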

Additional observations from a re-analysis of the deposited data

How the results depend on the processing

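In the 7 alternatives that keep all 6 libraries, 3 of the IGF genes were called each time, with the same sign for each of the 10 genes wherever it was tested. The log2 fold change of Igfbp3 ran from 2.03 to 2.09, of Igfbp2 from 1.75 to 1.81 and of Igfbp4 from 1.15 to 1.20. Without 1 library, 2 to 4 of the 10 were called. The median of the 10 then ran from 0.15 to 0.64 (0.64 without control 3, 0.15 without control 1 or mutant 3 and 0.17 without control 2), against 0.14 to 0.34 in the other alternatives. The value of 0.14 came from the stricter filter, in which Igfbp6 was not tested, so it covers the other members only. Insr ran from -0.10 to 0.21, Irs1 from -0.028 to 0.45 and Igfbp5 from -0.59 to 0.038, each with both signs. The difference in the Igf1r to Insr ratio ran from 0.23 to 0.58 without 1 library. The paired mean, with the replicate number as a block, was 0.42 (two-sided exact sign-flip permutation test, p = 0.25, the smallest that 3 pairs can give). Over all genes the count of 430 became 986 with DESeq2 and 1345 with the replicate block, and 163 to 664 without 1 library (193, 277 and 664 without control 1, 2 and 3, 218 and 163 without mutant 1 and 2). In the 6 further lists the 3 calls became 7 with DESeq2, 13 with the replicate block and 1 to 6 without 1 library (1 without control 1 or mutant 2, and 6 without control 3). The block changed no call among the 10 genes. The cause of these shifts was not tested. At 14.7 to 18.2 reads per CPM, Igfbp6 rested on 62 reads over the controls and 185 over the mutants.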
